A study of Rattus norvegicus with 94 samples.

Results

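The genes described here were taken as a group of phenobarbital-type inducible genes of the liver, Cyp2b genes and their partners. They are Cyp2b2 and Cyp2b15, 2 cytochromes P450 of the Cyp2b subfamily, Alas1, which makes the first committed step of heme synthesis, Por, which carries electrons to the cytochromes P450, and Ephx1, the microsomal epoxide hydrolase. Every probe set of the array whose platform gene symbol was 1 of these 5 was taken, which gave 9 probe sets of 8799. Cyp2b2 had 2 of them, Cyp2b15 had 1, Alas1 had 2, Por had 3 and Ephx1 had 1. The probe sets were taken by symbol alone, but the genes themselves were chosen with earlier results of these data known. All 9 passed the filter on dim probe sets in every fit. A further 4 probe sets carried the symbol of Cyp2b2 or Cyp2b15 beside that of another Cyp2b gene and are described by their identifiers.

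The study measured liver RNA of male SD rats on Affymetrix rat genome arrays after 1 dose of clofibrate, di(2-ethylhexyl) phthalate (DEHP) or sodium valproate (VPA). Clofibrate, a lipid-lowering drug, was dosed at 1000 mg/kg in 0.9% saline. VPA, an anticonvulsant fatty acid, was dosed at 2000 mg/kg and DEHP, a plasticizer, at 20 g/kg, both in distilled water. Treated livers were taken at 4, 24, 48 and 168 h, and livers of animals that received the vehicle alone at 48 and 168 h. Each compound had its own vehicle animals, so there were 18 groups, of 3 animals at 4 and 24 h, 4 at 48 and 168 h after VPA, and 5 in each other group. The 76 arrays of single animals were used for all tests, and an array of pooled RNA per group only for a comparison of levels. Values are MAS 5.0 signals, which the authors scaled to a target of 1500. A signal compares animals within a probe set and not 1 gene with another. In whole liver, fewer cells of a type and less RNA per cell cannot be told apart.

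Phenobarbital and related drugs act in hepatocytes through the nuclear receptor CAR, with a share for its relative PXR. Activated CAR binds an enhancer upstream of the Cyp2b genes and raises their transcription, and the P450 protein then needs heme, which Alas1 limits, and reducing equivalents from NADPH, which Por delivers. The oxidised products include reactive epoxides that Ephx1 hydrolyses to diols. Clofibrate and DEHP are best known as activators of another nuclear receptor, PPAR alpha, through their metabolites.

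The Cyp2b genes lie together and are alike to differing degrees. Their transcript and probe sequences were not analysed here, so which Cyp2b transcripts each Cyp2b probe set detects was not checked, those with 1 symbol included. The RefSeq promoter table (assembly GRCr8) held 7 Cyp2b genes on chromosome 1, in the order Cyp2b1, Cyp2b2, Cyp2b3, Cyp2b21, Cyp2b12, Cyp2b14 and Cyp2b15, and all 5 genes studied were in it. The start regions of Cyp2b2, Cyp2b15 and 2 relatives on the array are printed to show how alike these genes are at their starts. Each run has 120 bases on the plus strand and ends at the same letters, just around the gene start, and that of Cyp2b3 runs 13 bases past its annotated start. Capitals mark the 9 letters GTTGCATAA, or GTTGCTTAA in Cyp2b15, at positions 71 to 79 of each run.
Cyp2b1, chr1:90645978-90646097: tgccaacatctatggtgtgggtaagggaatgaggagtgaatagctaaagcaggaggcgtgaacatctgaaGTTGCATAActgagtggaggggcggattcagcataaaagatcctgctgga
Cyp2b2, chr1:90722123-90722242: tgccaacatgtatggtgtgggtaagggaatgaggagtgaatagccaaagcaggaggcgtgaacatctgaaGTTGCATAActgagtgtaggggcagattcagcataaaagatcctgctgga
Cyp2b3, chr1:90780361-90780480: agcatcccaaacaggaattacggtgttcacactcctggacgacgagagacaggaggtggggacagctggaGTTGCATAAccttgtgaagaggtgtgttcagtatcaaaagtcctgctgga
Cyp2b15, chr1:91221709-91221828: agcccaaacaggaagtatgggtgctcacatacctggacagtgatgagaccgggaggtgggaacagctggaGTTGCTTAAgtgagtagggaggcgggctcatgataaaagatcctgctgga
Cyp2b1 and Cyp2b2 shared 116 of 120 bases (96.7%), Cyp2b2 and Cyp2b15 shared 74 (61.7%), and Cyp2b2 and Cyp2b3 shared 65 (54.2%). The 250 bases upstream of Cyp2b14 and Cyp2b15 did not differ at any position. Over 33469 windows of 300 bases around gene starts, searched on both strands, GTTGCATAA was found in 32 (0.0956%) and GTTGCTTAA in 64 (0.191%). The hexamer AGGTCA, which many nuclear receptors bind, was in 5415 windows (16.2%), among them those of Cyp2b15, Por and Ephx1. Its direct repeat with 4 bases between, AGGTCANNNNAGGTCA, was in 2 windows, none of them of a gene studied here. The phenobarbital enhancer is known to lie further upstream, outside these windows, and a match describes letters only.

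In animals given vehicle the 9 probe sets did not pass the test between 48 and 168 h in any compound's set. By limma with Benjamini-Hochberg adjustment, 0% of 3616 probe sets were called in the clofibrate set, 0% of 4092 in the DEHP set and 0% of 4269 in the VPA set, with 114, 179 and 186 at an unadjusted p under 0.05. The vehicle signal of Cyp2b2 probe set K01721mRNA_s_at ranged over the 10 vehicle animals from 864.7 to 24993 in the clofibrate set, with a median of 14005. It ranged from 4654 to 15682 in the DEHP set and from 3844 to 14504 in the VPA set, with medians of 7557 and 7661. Cyp2b15 spread less, from 1075 to 2413, 2297 to 3326 and 1736 to 3099 in the same order. Ephx1 was bright in all vehicle livers, from 25718 to 44516, 20019 to 36156 and 21198 to 33002.

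The clofibrate arrays stood apart in RNA quality and in the ratio of the 2 Cyp2b2 probe sets. Control probe sets at the 3' and 5' ends of the same transcripts gauge RNA integrity. Their log2 3'/5' signal ratio was 1.38 ± 0.65 (SD, n = 26) there, 0.33 ± 0.14 (n = 26) for DEHP and 0.34 ± 0.14 (n = 24) for VPA. The signal of K01721mRNA_s_at over that of the other Cyp2b2 probe set, J00728cds_f_at, had a median of 2.22 in the clofibrate set and of 1.23 in each of the other sets. In 4 clofibrate arrays deposited to 1 decimal, with a log2 3'/5' ratio of 2.40 to 2.74, it ran from 1.85 to 9.86. In the other 22 it ran from 0.391 to 4.25. How far RNA quality sets the level of either probe set was not tested. All 9 hepatocyte markers on the array had median signals above the floor of 150. Markers of other liver cells were measured too, with 6 of 8 Kupffer cell and leukocyte, 10 of 11 stellate and matrix, 3 of 4 endothelial and 2 of 3 bile duct markers above it. Ccl5, Csf1r, Des, Vwf and Spp1 were under it.

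**Figure D1:**
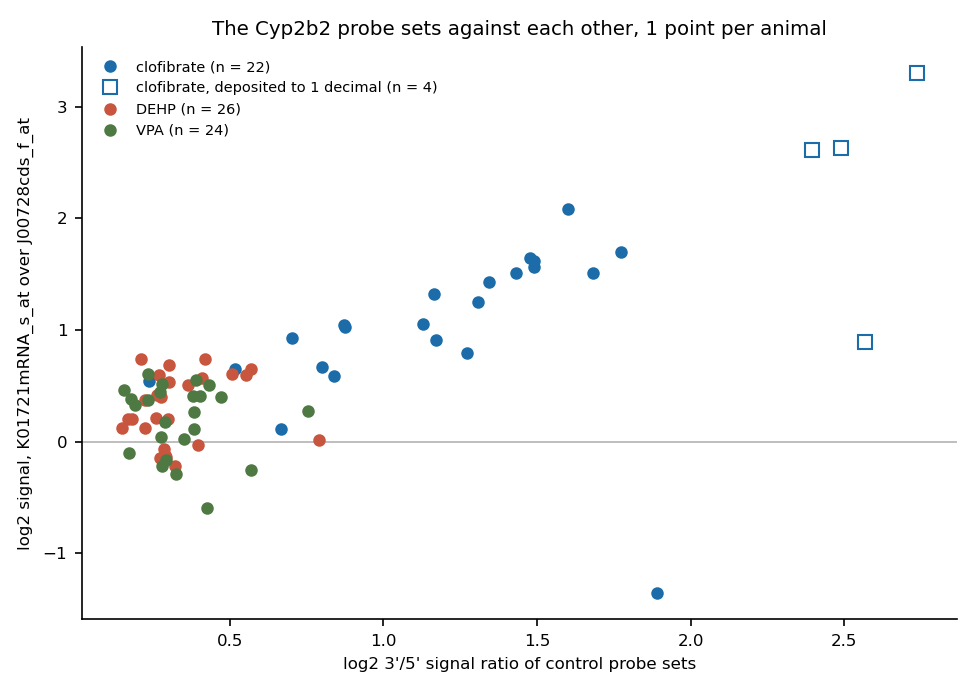
Each point is the liver of 1 animal. The y axis gives the log2 signal of K01721mRNA_s_at over J00728cds_f_at, both annotated to Cyp2b2, and the x axis the log2 3'/5' signal ratio of the control probe sets. DEHP and VPA arrays lie together near the origin, and most clofibrate arrays spread to the upper right, with the 4 arrays deposited to 1 decimal (open squares) at ratios of 2.40 to 2.74. The first clofibrate vehicle liver of 168 h lies to the lower right, at a ratio of 1.89 and a y value of -1.36.

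Cyp2b2, a monooxygenase whose induction by phenobarbital is the textbook case in rat liver, had larger folds at 24 and 48 h than the other genes. In the DEHP set, K01721mRNA_s_at gave signals of 15682, 7440.0, 6487, 5246 and 9785 in the vehicle animals at 48 h and of 5642, 9360.2, 4654, 8789 and 7673 at 168 h. DEHP-treated livers gave 9976, 13499 and 14686 at 4 h, 77191.5, 58677 and 74589 at 24 h and 104079, 76461, 70739, 81809 and 76587 at 48 h. Every treated liver at 24 and 48 h lay above every vehicle liver, whereas those at 4 h lay within the vehicle range. The change was 9.16-fold (log2 3.20, SE 0.26, adjusted p = 1.63e-09) at 24 h and 9.81-fold (log2 3.29, SE 0.25, adjusted p = 2.09e-10) at 48 h, against 1.65-fold at 4 h (adjusted p = 0.15). At 168 h the signals were 15100.5, 33446, 19764, 25682 and 30284, lower than at 48 h. They still overlapped no vehicle animal of that time (3.42-fold, adjusted p = 3.39e-05).

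After VPA, Cyp2b2 was called at 4, 24 and 48 h and not at 168 h. K01721mRNA_s_at read 7904, 7594, 9868, 4978 and 6370.4 in vehicle livers at 48 h and 7834, 7729, 3844, 14504 and 6809 at 168 h. It read 27227, 17293 and 10952 at 4 h, 37811, 49495 and 48784 at 24 h and 45689, 52986, 40126 and 65599 at 48 h after VPA. At 4 h 2 of 3 treated livers were above all 10 vehicle livers, and at 24 and 48 h all were. The changes were 2.37-fold (log2 1.24, SE 0.28, adjusted p = 0.00273) at 4 h, 6.17-fold (log2 2.62, SE 0.28, adjusted p = 1.79e-07) at 24 h and 7.02-fold (log2 2.81, SE 0.28, adjusted p = 4e-08) at 48 h. At 168 h the signals were 9652, 12269, 10579.7 and 13071, inside the vehicle range, and the test was not passed (1.52-fold, adjusted p = 0.639).

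After clofibrate, Cyp2b2 rose as well, with wider scatter. K01721mRNA_s_at read 7382, 20494, 22010.0, 9018 and 24992.5 in vehicle livers at 48 h and 864.7, 15248, 10247.5, 16677 and 12762 at 168 h, the first of the latter far below the rest. It read 37942, 17882 and 22063 at 4 h, 86093, 36307 and 103950.5 at 24 h and 83409.5, 68381, 102937, 64235 and 120473 at 48 h after clofibrate. Groups overlapped at 4 h and not at 24 or 48 h. The rise was 6.37-fold (log2 2.67, SE 0.59, adjusted p = 0.00276) at 24 h and 5.71-fold (log2 2.51, SE 0.57, adjusted p = 0.00271) at 48 h, and the 4 h value of 2.28-fold did not pass (adjusted p = 0.403). Without the 4 arrays deposited to 1 decimal, the log2 change was 2.37 at 24 h (adjusted p = 0.0379) and 2.39 at 48 h (adjusted p = 0.0266). At 168 h the signals of 30688, 32004.5, 20787, 20457 and 15668 gave 2.96-fold, which did not pass (adjusted p = 1.00). Without the vehicle liver at 864.7 it was 1.71-fold.

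The other Cyp2b2 probe set, J00728cds_f_at, rose with all 3 compounds at 24 and 48 h. At 48 h its signals were 26599, 35804, 68412, 31416 and 19754 after clofibrate, against 6830.2, 7617, 6780.2, 4863 and 4032 in vehicle livers. DEHP gave 78043, 51565, 61385, 57529 and 58161 at 48 h against 14406, 7784, 7554.5, 5793 and 9985 with vehicle. VPA gave 35135, 44085, 39083 and 58173 against 7315, 6262, 6479, 5589 and 7396.5. In each set all treated livers lay above all vehicle livers of that time. The 48 h changes were 5.67-, 7.01- and 6.59-fold (log2 SE 0.37, 0.21 and 0.21; adjusted p = 2.42e-05, 2.09e-10 and 7.74e-10). At 24 h they were 3.66-, 5.82- and 4.75-fold.

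**Figure D2:**
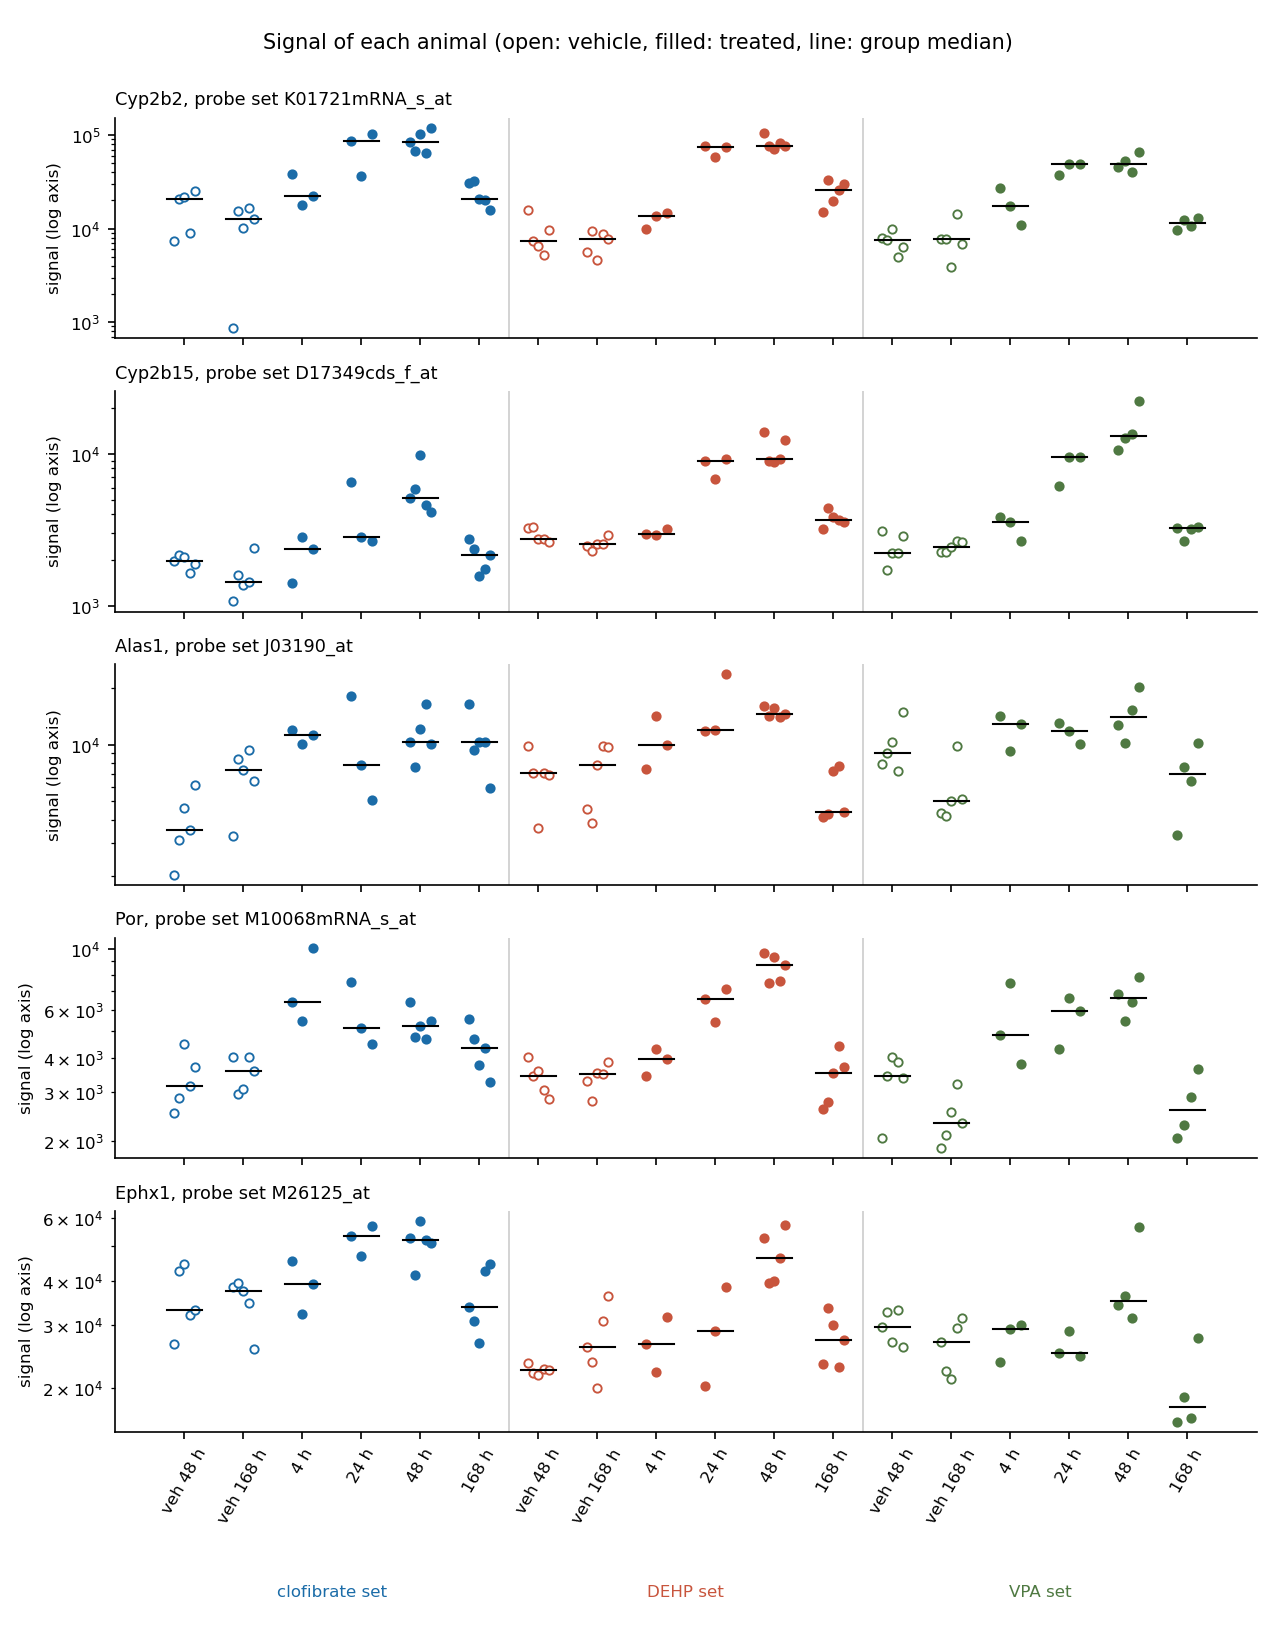
Signal of each animal (log axis, MAS 5.0 units) for the probe set of highest mean log2 signal of each gene, in the 6 groups of each compound. Open circles are vehicle livers, filled circles treated livers, and lines group medians. Cyp2b2 and Cyp2b15 sit above all vehicle livers at 24 and 48 h in each set, and Ephx1 moves over a much narrower range.

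Cyp2b15, a cytochrome P450 of the same subfamily, was read by 1 probe set annotated to it, which had smaller folds than those of Cyp2b2 at 24 and 48 h. In the DEHP set its signals were 3244, 3325.5, 2768, 2755 and 2648 in vehicle livers at 48 h. They were 2989, 2949 and 3222 at 4 h, 8983, 6860.2 and 9266 at 24 h and 13768, 8930.1, 8837, 9244 and 12272 at 48 h after DEHP. Treated livers at 24 and 48 h lay above every vehicle liver, and those at 4 h did not. The rise was 3.03-fold (log2 1.60, SE 0.13, adjusted p = 1.63e-09) at 24 h and 3.55-fold (log2 1.83, SE 0.12, adjusted p = 3.9e-11) at 48 h. At 168 h the signals were 3194, 4383, 3829, 3652.5 and 3577 against 2475, 2297, 2542, 2543 and 2939 with vehicle, 1.45-fold without overlap (adjusted p = 0.00973). In the fit of all 18 groups, which takes 1 spread for the 3 sets, the same 168 h change did not pass (adjusted p = 0.241).

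After VPA, Cyp2b15 rose at 24 and 48 h, and 1 liver gave its highest signal of the series. The signals were 3819, 3592 and 2682 at 4 h, 6175, 9567 and 9506 at 24 h and 10644, 12702, 13466 and 22157 at 48 h, against 3099, 1736, 2238, 2237 and 2883 in vehicle livers at 48 h. No liver at 24 or 48 h overlapped a vehicle liver, and the fourth at 48 h stood highest. The changes were 3.41-fold (log2 1.77, SE 0.19, adjusted p = 1.86e-07) at 24 h and 5.94-fold (log2 2.57, SE 0.19, adjusted p = 4.48e-10) at 48 h. The 4 h value of 1.37-fold did not pass (adjusted p = 0.0835). At 168 h all 4 treated livers, at 3259, 2687, 3210.2 and 3321, were above the 5 vehicle livers, yet the change of 1.26-fold did not pass (adjusted p = 0.728).

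After clofibrate Cyp2b15 read 6487.5, 2859 and 2670.5 at 24 h and 5147, 5897, 9808.5, 4644 and 4161 at 48 h, against 1974, 2172, 2111, 1663 and 1888.5 in vehicle livers at 48 h and 1075, 1615, 1373, 1435 and 2413 at 168 h. All treated livers at both times exceeded their vehicle livers, and at 24 h the first liver was far above the other two. The changes were 2.13-fold (log2 1.09, SE 0.28, adjusted p = 0.00927) at 24 h and 2.89-fold (log2 1.53, SE 0.27, adjusted p = 0.000202) at 48 h. At 4 h the signals of 1427, 2856 and 2369.8 overlapped the vehicle range (1.23-fold, adjusted p = 0.682), and at 168 h the change was 1.37-fold (adjusted p = 1.00). Without the first treated liver at 24 h, the 24 h rise did not pass (log2 0.68, adjusted p = 0.158). The same held against the 48 h vehicle livers alone (log2 0.91, adjusted p = 0.0576).

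The 4 probe sets that carry more than 1 Cyp2b symbol also rose, and the 3 of them annotated to Cyp2b1 had larger folds at 48 h than either Cyp2b2 probe set, a difference that was not tested. K00996mRNA_s_at, L00320cds_f_at and M11251cds_f_at are annotated to Cyp2b1 and Cyp2b2, and Cyp2b1 is the other classic phenobarbital-inducible gene of the subfamily. At 48 h, L00320cds_f_at read 35093, 44936, 38544 and 59339 after VPA against 2084, 1253.5, 1799, 1611 and 2131 with vehicle, 25.0-fold. It rose 17.9-fold after clofibrate and 19.0-fold after DEHP. M11251cds_f_at rose 14.5-, 17.0- and 25.0-fold and K00996mRNA_s_at 7.58-, 12.7- and 12.9-fold after clofibrate, DEHP and VPA. M13234cds_f_at, annotated to Cyp2b15 and Cyp2b2, rose 6.36-, 7.40- and 10.1-fold, and all 12 changes passed the test. Which Cyp2b transcript gave these signals cannot be told apart with these annotations.

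A Cyp2b gene that is not counted among the 5, Cyp2b3, moved the other way. Its probe set M20406_at read 17751, 18362, 22337, 15136.5 and 19356 48 h after DEHP against 32459, 38433.5, 38846, 35401 and 40337 with vehicle. All DEHP-treated livers at 24 and 48 h lay below all vehicle livers. The log2 change was -0.81 at 24 h after DEHP (adjusted p = 1.39e-06), where the 48 h fall was 2.01-fold (adjusted p = 2.32e-08). It was -0.61 and -0.55 at 24 and 48 h after VPA (adjusted p = 2.46e-05 and 7.4e-05), and -1.07 at 48 h after clofibrate, with overlap (adjusted p = 0.00455). Its probe set rc_AI169735_g_at fell by 1.19 at 48 h after DEHP on the log2 scale. It did not pass after clofibrate at either time (adjusted p = 0.142 and 0.225) or after VPA at 24 h (adjusted p = 0.903). The third Cyp2b3 probe set, rc_AI169735_at, scattered widely among animals and was called in none of the comparisons at 24 and 48 h. Cyp2b12 was dim throughout, with no signal above 262.1.

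**Figure D3:**
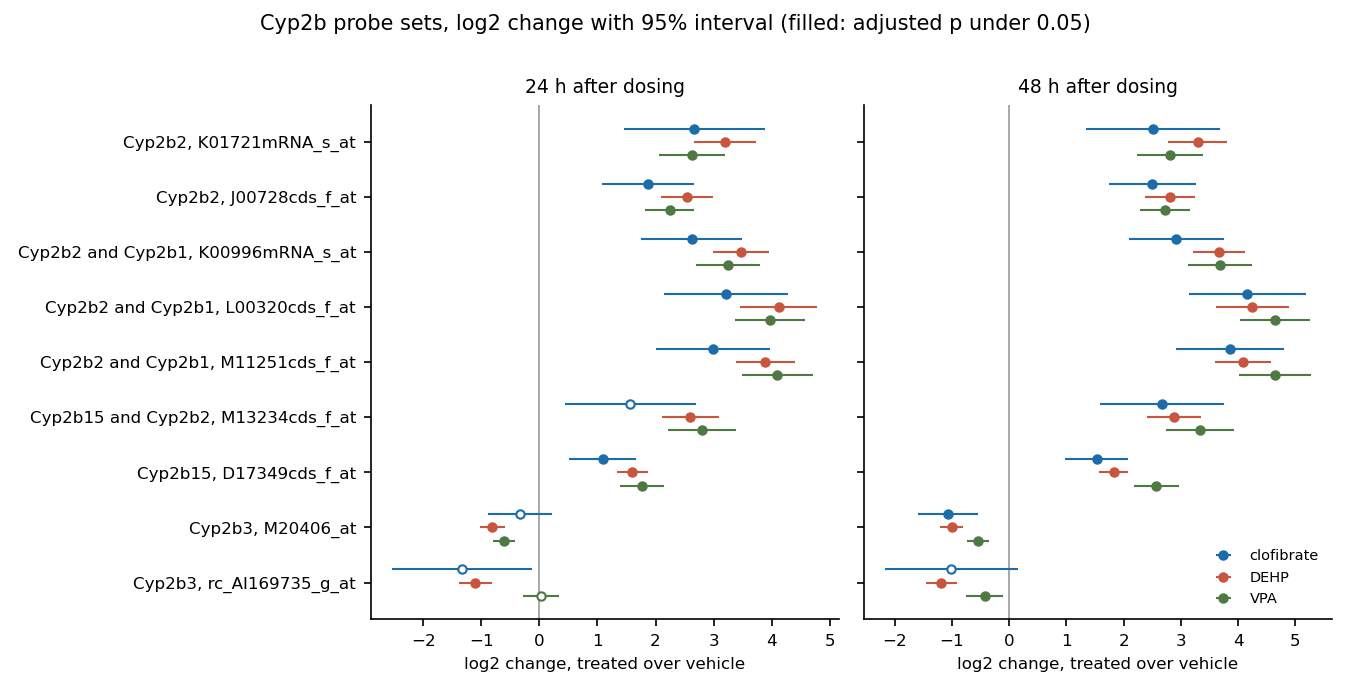
Log2 change of 9 Cyp2b probe sets, without rc_AI169735_at of Cyp2b3 and the dim one of Cyp2b12, against vehicle, with its 95% interval, 24 h (left) and 48 h (right) after dosing. Filled circles passed an adjusted p of 0.05. Probe sets annotated to Cyp2b2, Cyp2b1 or Cyp2b15 lie to the right of 0 with all 3 compounds, and the 2 of Cyp2b3 shown lie at or to the left of it.

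Alas1, which supplies the heme that each new P450 needs, rose after DEHP and clofibrate. In the DEHP set J03190_at read 9887, 7089.8, 3615, 7106 and 6944 in vehicle livers at 48 h, and 11804, 11980.4 and 23607 at 24 h and 15976, 14232, 15707, 14055 and 14536 at 48 h after the dose. Treated livers of both times lay above all vehicle livers, and those at 48 h were close together. The change was 2.26-fold (log2 1.17, SE 0.29, adjusted p = 0.00311) at 24 h and 2.26-fold (log2 1.17, SE 0.28, adjusted p = 0.00224) at 48 h. Without the third treated liver at 24 h the 24 h value did not pass (log2 0.84, adjusted p = 0.0558). The second probe set, J03190_g_at, rose 2.01-fold at 24 h and 2.06-fold at 48 h (adjusted p = 0.000781 and 0.000338).

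After clofibrate, Alas1 probe set J03190_at read 12033, 10082 and 11269 at 4 h, 18139, 7788 and 5079.7 at 24 h and 10354, 7577, 12128, 16505 and 10062 at 48 h. Vehicle livers read 2039.6, 3131, 4599, 3527 and 6118.5 at 48 h and 3273, 8398, 7334, 9323 and 6440.1 at 168 h. The treated livers at 4 and 48 h exceeded those they were compared with, and at 24 h the first liver did. Only the 48 h rise passed, at 3.02-fold (log2 1.59, SE 0.34, adjusted p = 0.00164), with 2.27-fold at 4 h (adjusted p = 0.0701) and 1.83-fold at 24 h (adjusted p = 0.111). Both earlier values passed against the 48 h vehicle livers alone (log2 1.61 and 1.30, adjusted p = 0.0187 and 0.0326), with array weights, in the fit of all 18 groups and without the 4 arrays deposited to 1 decimal (adjusted p = 0.0341 and 0.0233). Against the 168 h vehicle livers alone they were smaller and did not pass (log2 0.76 and 0.45, adjusted p = 0.601 and 0.560). J03190_g_at passed at 24 and 48 h, at 2.09-fold and 1.98-fold, with overlap at each (adjusted p = 0.017 and 0.0165). It did not pass at 4 h (log2 0.72). Its 24 h rise did not pass without the 4 arrays deposited to 1 decimal (log2 1.07, adjusted p = 0.0574) or without the first treated liver (log2 0.88, adjusted p = 0.127). The same held against the 168 h vehicle livers alone (adjusted p = 0.117) and without the third treated liver (adjusted p = 0.0704). Its 48 h rise did not pass with array weights (adjusted p = 0.0643).

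After VPA neither Alas1 probe set passed at any time under the settings used here, and the early values of J03190_at depended on the vehicle group. J03190_at read 12644, 10227, 15319 and 20114 at 48 h against 7900.2, 9007, 10288, 7239 and 14885 in vehicle livers, and the groups overlapped. The log2 change was 0.57 with a 95% interval of -0.02 to 1.16 (adjusted p = 0.12). At 4 and 24 h it was 0.73 and 0.69 (adjusted p = 0.0641 and 0.0563). Against the 48 h vehicle livers alone it was 0.33 and 0.28 (adjusted p = 0.520 and 0.521), and against those of 168 h alone 1.14 and 1.10, which passed (adjusted p = 0.0140 and 0.00857). It passed as well at both times with the replicate number as a block (adjusted p = 0.0161 and 0.0113), under quantile normalization (adjusted p = 0.0379 and 0.0387), and without the fourth vehicle liver of 168 h or the fifth of 48 h. J03190_g_at changed by 0.27 at 24 h and 0.25 at 48 h on the log2 scale (adjusted p = 0.427 and 0.475).

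Por, which hands electrons from NADPH to every microsomal P450, was called at 4 h after clofibrate and VPA and not after DEHP. At 4 h after clofibrate M10068mRNA_s_at read 6422, 5455 and 10076, above all 10 vehicle livers, which spanned 2529.6 to 4516. The change was 2.08-fold (log2 1.06, SE 0.20, adjusted p = 0.00218). The other probe sets, E01524cds_s_at and rc_AI137856_s_at, rose 2.50-fold and 3.31-fold at 4 h (adjusted p = 0.00915 and 0.0179). M10068mRNA_s_at was higher by 1.65-fold at 24 h and 1.61-fold at 48 h (adjusted p = 0.0186 and 0.0156). Without the 4 arrays deposited to 1 decimal the 48 h call was lost (adjusted p = 0.0523), as it was with array weights (adjusted p = 0.0663). E01524cds_s_at passed at 48 h (1.83-fold, adjusted p = 0.0339) and not at 24 h (1.41-fold, adjusted p = 0.323), and rc_AI137856_s_at at neither time. The 48 h call of E01524cds_s_at was lost with the scan day (adjusted p = 0.0670) or the replicate number (adjusted p = 0.0565) as a block, with no filter, with only the groups compared, and without treated liver 2, 3 or 4 or vehicle liver 1 or 4 (adjusted p = 0.0576 to 0.114). Without the third clofibrate liver at 4 h, no Por probe set was called at 4 h, and without the first at 24 h, M10068mRNA_s_at was not called at 24 h (log2 0.50, adjusted p = 0.194). Against the 168 h vehicle livers alone, E01524cds_s_at and rc_AI137856_s_at did not pass at 4 h (adjusted p = 0.0656 and 0.0564). M10068mRNA_s_at did not pass at 24 h against them (adjusted p = 0.0591). The 4 h call of rc_AI137856_s_at was also lost with no filter (adjusted p = 0.0557) or the replicate block (adjusted p = 0.0724).

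VPA also raised Por at 4 h, on all 3 probe sets. M10068mRNA_s_at read 4845, 7512 and 3814 at 4 h, 4313, 6606 and 5934 at 24 h and 6824, 5449.9, 6421 and 7912 at 48 h. Vehicle livers read 2039, 3436, 4035, 3871 and 3371 at 48 h and 1878, 2103, 2549, 3208 and 2318 at 168 h, so that 1 of 3 livers at 4 h was inside their range and none later. The changes were 1.86-fold (log2 0.90, SE 0.22, adjusted p = 0.00529) at 4 h, 1.99-fold (log2 0.99, SE 0.22, adjusted p = 0.00103) at 24 h and 2.02-fold (log2 1.02, SE 0.22, adjusted p = 0.000747) at 48 h. E01524cds_s_at rose 1.85-, 2.48- and 2.95-fold and rc_AI137856_s_at 2.43-, 2.77- and 3.05-fold at the same times. Without the second VPA liver at 4 h, M10068mRNA_s_at and E01524cds_s_at did not pass there (adjusted p = 0.0913 and 0.0897). Against the 48 h vehicle livers alone, M10068mRNA_s_at did not pass at 4 h (log2 0.67, adjusted p = 0.0625).

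After DEHP, Por did not pass at 4 h and rose at 24 and 48 h. M10068mRNA_s_at read 3430.2, 4309 and 3978 at 4 h, 6546, 5430.1 and 7142 at 24 h and 9609, 7510.2, 9293, 7613 and 8725 at 48 h, against 4046, 3454, 3592, 3062 and 2837.5 in vehicle livers at 48 h. Livers at 24 and 48 h were all above the vehicle livers. The changes were 1.15-fold at 4 h (adjusted p = 0.53), 1.88-fold (log2 0.91, SE 0.14, adjusted p = 1.91e-05) at 24 h and 2.52-fold (log2 1.33, SE 0.13, adjusted p = 3.31e-08) at 48 h. E01524cds_s_at and rc_AI137856_s_at rose 2.64-fold and 2.92-fold at 48 h. At 168 h no Por probe set was called with any compound.

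Ephx1, which turns epoxides made by the P450s into diols, rose after DEHP at 48 h and after clofibrate at 24 and 48 h. In the DEHP set M26125_at read 23560.1, 21984, 21815, 22676 and 22461 in vehicle livers at 48 h, 20242, 28869.5 and 38373.5 at 24 h after the dose and 52689, 39487, 39828, 46353 and 57058 at 48 h. At 24 h 2 of 3 treated livers lay within the span of the 10 vehicle livers, 20019 to 36156, and at 48 h all 5 lay above it. The change was 1.15-fold at 24 h (adjusted p = 0.392) and 2.07-fold (log2 1.05, SE 0.16, adjusted p = 1.58e-05) at 48 h. Clofibrate gave 53332.5, 46752 and 56754 at 24 h and 52671, 41576, 58668, 52047 and 50812 at 48 h against 26585, 42581, 44516, 32093 and 33053 with vehicle at 48 h, without overlap at 24 h and with overlap at 48 h. The rises were 1.49-fold and 1.45-fold (adjusted p = 0.0254 and 0.0247). Without the 4 arrays deposited to 1 decimal, neither passed (log2 0.48 and 0.46, adjusted p = 0.171 and 0.151). The 24 h call was also lost under quantile normalization, with the replicate block, with no filter, with only the groups compared, with either vehicle group alone, and without treated liver 1 or 3 (adjusted p = 0.0502 to 0.107). The 48 h call was lost with no filter, array weights or only the groups compared, and without treated liver 3 or vehicle liver 1, 4 or 5 (adjusted p = 0.0516 to 0.0691).

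After VPA, Ephx1 did not pass at any time under the settings used here. It read 34193, 36105, 31372 and 56583 at 48 h against 29591, 32655.5, 26859, 33002 and 26052 in vehicle livers, with 3 of 4 treated livers above all vehicle livers. The 48 h value was 1.30-fold (log2 interval 0.03 to 0.73, adjusted p = 0.0753). It passed with the replicate number (adjusted p = 0.0199) or the scan day (adjusted p = 0.0232) as a block, with a 3'/5' covariate, under quantile normalization (log2 0.72, adjusted p = 0.00028) and without the third treated liver. At 168 h its signals were 16114, 18870.2, 16488 and 27686 against 26919, 22283, 21198, 29427 and 31405.5, a log2 change of -0.43 (adjusted p = 0.536).

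**Figure D4:**
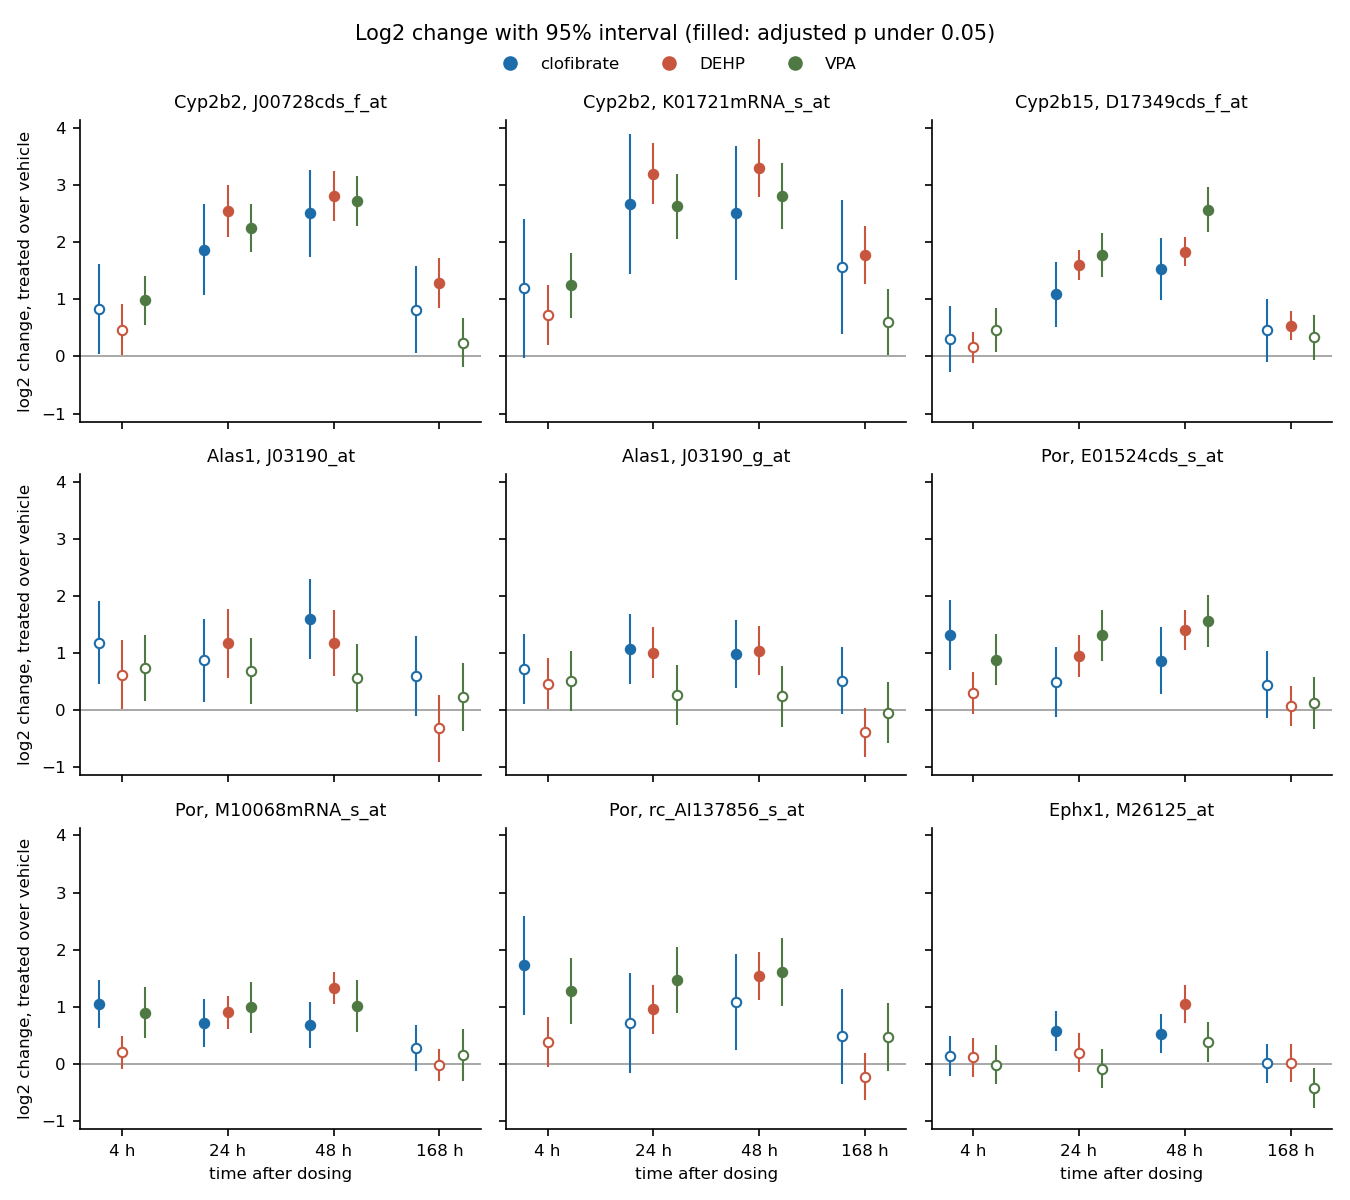
Log2 change against vehicle with its 95% interval for each of the 9 probe sets, at 4, 24, 48 and 168 h. Filled circles passed an adjusted p of 0.05. Cyp2b2 and Cyp2b15 are filled for all 3 compounds at 24 and 48 h, the Por probe sets are already up at 4 h after clofibrate and VPA, the Alas1 probe sets have no filled circle for VPA, and Ephx1 has 1 filled circle for DEHP, at 48 h, and 0 for VPA.

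Counted together, the 9 probe sets were called higher more often than the array as a whole at 24 and 48 h, and none was called lower in any of the 12 treated comparisons, where 0% to 21.1% of all probe sets were. After clofibrate 3 of 9 were called higher at 4 h, where 2.43% of all probe sets were, 6 at 24 h (5.75% of all), 8 at 48 h (7.27% of all) and 0 at 168 h. There 0% of all were called, with 78 at an unadjusted p under 0.05. After DEHP the counts were 0 at 4 h (1.54% of all, with 605 at an unadjusted p under 0.05), 8 at 24 h (15.1% of all), 9 at 48 h (12.8% of all) and 3 at 168 h (2.13% of all). After VPA they were 5 at 4 h (14.4% of all), 6 at 24 h (20.9% of all), 6 at 48 h (21.3% of all) and 0 at 168 h, where 0% of all were called and 326 had an unadjusted p under 0.05. The 3 called at 168 h after DEHP were both Cyp2b2 probe sets and Cyp2b15. The median log2 change of the 9 at 48 h was 1.09 after clofibrate, 1.40 after DEHP and 1.56 after VPA, against -0.13, -0.11 and -0.01 over all probe sets tested. Some counts turned on 1 animal. Without the third clofibrate liver at 4 h the 4 h count was 0, without the first at 24 h the 24 h count was 2, and without the second VPA liver at 4 h the VPA count was 3. Leaving out the first DEHP vehicle liver of 48 h gave 1 for DEHP at 4 h. Early comparisons of a compound use both of its vehicle groups and so share arrays with the later ones. With the 168 h vehicle group alone, the clofibrate counts were 1 at 4 h and 3 at 24 h.

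The timing of these rises was tested within each compound. From 4 to 24 h after DEHP 5 of 9 probe sets rose further, where 10.8% of all did. They were both of Cyp2b2 (log2 2.47 and 2.07), Cyp2b15 (1.44) and Por probe sets M10068mRNA_s_at (0.70) and E01524cds_s_at (0.65). After VPA 3 rose, where 6.91% of all did, both of Cyp2b2 (log2 1.38 and 1.26) and Cyp2b15 (1.31). None of the Por probe sets did, and M10068mRNA_s_at differed by 0.09 (95% interval -0.46 to 0.65). After clofibrate 0 of 9 were called, where 2.52% of all were, and the log2 differences ran from -1.01 for a Por probe set to 1.48 for Cyp2b2.

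Between 24 and 48 h the response of 1 gene grew. Ephx1 after DEHP was higher at 48 h than at 24 h by 0.85 on the log2 scale (SE 0.20, adjusted p = 0.0361), where 0.587% of all probe sets were called higher. This call was lost under quantile normalization and with no filter on dim probe sets. After clofibrate 0 of 9 were called, where 0.138% of all were, and after VPA 0 of 9, where 1.22% of all were. The nearest was Cyp2b15 after VPA, at 0.80 (adjusted p = 0.0726).

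After DEHP and VPA the responses were smaller at 168 h than at 48 h. After DEHP all 9 probe sets were lower at 168 h than at 48 h, where 5.6% of all probe sets were called lower, with log2 differences from -1.03 for Ephx1 to -1.76 for Por probe set rc_AI137856_s_at. After VPA 6 were lower, where 12.7% of all were. These were both of Cyp2b2 (-2.21 and -2.48), Cyp2b15 (-2.23), Ephx1 (-0.81) and 2 of Por. After clofibrate 0 of 9 were called, where 2.96% of all were, and Cyp2b2 came nearest at -1.68 for J00728cds_f_at (adjusted p = 0.0551).

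The compounds were set against each other in 3 pairs at 4 times, each response taken against its own vehicle, in the fit of all 76 arrays. Their doses differ, at 1000 mg/kg clofibrate, 2000 mg/kg VPA and 20 g/kg DEHP. Of 108 differences, 9 probe sets in 12 comparisons, 1 passed. Cyp2b15 rose more at 48 h after VPA than after clofibrate, by 1.04 on the log2 scale (95% interval 0.45 to 1.63, adjusted p = 0.0135), where 11.3% of all probe sets were called. Its difference between VPA and DEHP at 48 h was 0.74 (interval 0.15 to 1.33, adjusted p = 0.122, with 7.97% of all called). In a fit of the VPA and DEHP arrays alone, chosen after seeing the data, the same difference passed (interval 0.29 to 1.19, adjusted p = 0.0194).

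Cyp2b2 responses at 48 h did not pass in any pair, and the intervals were wide. For K01721mRNA_s_at clofibrate differed from DEHP by -0.78 (95% interval -1.94 to 0.38), VPA from DEHP by -0.48 (interval -1.68 to 0.71) and VPA from clofibrate by 0.30 (interval -0.90 to 1.49). For Alas1 the response to VPA at 48 h was lower than that to clofibrate by 1.03 on the log2 scale, short of the threshold (adjusted p = 0.143). For Por at 4 h clofibrate exceeded DEHP by 0.85 (interval 0.31 to 1.40, adjusted p = 0.211). For Ephx1 VPA lay below DEHP at 48 h, with a difference of -0.67 (interval -1.15 to -0.18, adjusted p = 0.0782). No difference in the Alas1 or Ephx1 response between VPA and another compound passed, so the missing calls after VPA do not by themselves show one. Of all probe sets, 0.266%, 2.2%, 2.07% and 0.777% were called between clofibrate and DEHP at 4, 24, 48 and 168 h. Between VPA and clofibrate 4.33% were called at 4 h, 8.86% at 24 h and 0% at 168 h, the last with 154 at an unadjusted p under 0.05. Between VPA and DEHP 4.29% were called at 4 h, 4.62% at 24 h and 0.777% at 168 h.

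The spread among animals of a group was partly shared by the 9 probe sets. The fourth VPA liver at 48 h was the highest of its group on 8 of 9, and the first DEHP liver at 48 h on 7. The fourth VPA vehicle liver of 168 h was highest on 8 and the first clofibrate vehicle liver of 168 h lowest on 7. These animals were picked out by these values and are described only. The arrays of pooled RNA gave 132 of 162 values of the 9 probe sets within the range of the single animals of their group, 18 above it and 12 below it.

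Over the 18 group means, each centred on its compound, the genes could be ranked by how alike their patterns were. Groups share arrays of 1 compound, so Pearson's r (n = 18) is a description. The highest mean signal probe sets of Cyp2b2 and Cyp2b15 had r = 0.942. Alas1 and Por had r = 0.883, and Cyp2b2 had r = 0.817 with Por, 0.702 with Ephx1 and 0.696 with Alas1. Among 2572 other probe sets, those most like Cyp2b2 were Nap1l1, a histone chaperone (r = 0.971), Hadhb (0.959) and Hadha (0.945), subunits of the mitochondrial trifunctional protein of fatty acid oxidation, Timm10b, a mitochondrial import protein (0.952), and Aldh1a1, a retinal dehydrogenase (0.945). For Cyp2b15 they were Psma6, a proteasome subunit (0.968), Acot7, an acyl-CoA thioesterase (0.959), and Hadhb (0.955). Alas1 was most like Eef2, a translation elongation factor (0.867), Atic, of purine synthesis (0.862), and Txnrd1, thioredoxin reductase (0.858). Por was most like Gadd45a, a stress-response gene (0.911), Acsl4, an acyl-CoA synthetase (0.901), and Txnrd1 (0.901). Ephx1 was most like Gsta3, a glutathione S-transferase (0.883), Clu, clusterin (0.881), and Cyp3a23-3a1, a PXR target (0.856).

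Other genes listed as CAR and PXR targets were called in both directions. Of 26 listed genes on the array, 22 were tested in the DEHP and VPA sets and 21 in the clofibrate set. Cyp2b3 is among them, and its falls described above are part of these counts. At 48 h 11 were called higher and 1 lower after DEHP, 6 higher and 8 lower after VPA, and 3 higher and 2 lower after clofibrate. Of all probe sets, 12.8% were called higher and 21.1% lower after DEHP, 21.3% and 18.4% after VPA, and 7.27% and 12.7% after clofibrate. At 24 h the counts were 4 and 3, 2 and 9, and 2 and 0 in the same order. The shares of all were then 15.1% and 17.5%, 20.9% and 15.6%, and 5.75% and 7.74%. Aldh1a1 rose 12.3-fold after DEHP, 9.19-fold after VPA and 7.76-fold after clofibrate at 48 h. Gsta3 rose 12.8-fold and 5.92-fold after DEHP and clofibrate, and Cyp3a23-3a1, the classic PXR target, 2.21-fold and 2.54-fold. After VPA at 48 h, Slco1a4, an organic anion uptake transporter, was 4.25-fold lower, and Gstm5 and Cyp3a9 were 3.81-fold and 2.87-fold higher. The median log2 change of the list at 48 h was 0.30 after DEHP, -0.0007 after VPA and 0.23 after clofibrate, against -0.11, -0.01 and -0.13 over all probe sets.

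Genes that act beside Alas1 and Por were called in both directions. Of 10 other genes of heme synthesis and breakdown on the array, 4 were called higher and 3 lower at 48 h after VPA, 1 higher and 2 lower after DEHP, and 0 higher and 2 lower of 9 tested after clofibrate. Of all probe sets at 48 h, 21.3% were called higher and 18.4% lower after VPA, 12.8% and 21.1% after DEHP, and 7.27% and 12.7% after clofibrate. Urod, which decarboxylates uroporphyrinogen, and Tspo, the outer mitochondrial translocator protein, were 1.78-fold and 3.07-fold higher 48 h after VPA. Hpx, hemopexin, which binds free heme in plasma, was 1.69-fold lower there. Tfrc, the transferrin receptor, rose 2.34-fold 48 h after DEHP, and Ppox, of a late step of heme synthesis, was 1.73-fold lower 48 h after clofibrate. Of 7 genes of microsomal electron transfer, 1 was called higher at 48 h after DEHP (Cyb5b, 1.42-fold), 3 were called lower after VPA, led by Scd, a fatty acid desaturase (4.02-fold), and 0 after clofibrate. At 24 h Cyb5r3, cytochrome b5 reductase, was 1.5-fold lower after DEHP and 1.59-fold lower after clofibrate. Of 2 other epoxide hydrolases tested, Ephx2, the soluble form, rose 2.58-fold after DEHP and 2.64-fold after VPA at 48 h. After clofibrate 0 were called higher and 1 lower, Lta4h, leukotriene A4 hydrolase, at 1.52-fold, and the Ephx2 value of 2.89-fold did not pass (adjusted p = 0.0986).

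Of 11 tested genes for CAR and PXR partners and cofactors, 4 were called lower and 0 higher at 48 h after VPA, where 18.4% of all probe sets were called lower. After clofibrate 2 were lower and 0 higher (12.7% of all lower), and after DEHP 1 lower and 1 higher (21.1% of all lower). Nr3c1, the glucocorticoid receptor, was 3.11-fold lower after VPA and 2.25-fold lower after clofibrate. Egfr, the epidermal growth factor receptor, was 1.93-fold lower after VPA and 1.54-fold lower after DEHP. Hsp90ab1, a chaperone of nuclear receptors, was 1.45-fold higher after DEHP. Of 13 PPAR alpha target genes 10 were called higher with each compound at 48 h. Of all probe sets, 7.27%, 12.8% and 21.3% were called higher there after clofibrate, DEHP and VPA. At 4 h 9 of these target genes were already called higher after clofibrate, 7 after DEHP and 6 after VPA, against 3, 0 and 5 of the 9 probe sets studied here. The list counts 1 probe set per gene, whereas the 9 hold several for some genes. By the probe set of highest mean log2 signal of each of the 5 genes, the counts were 1, 0 and 2. The shares of all called higher at 4 h were 2.43%, 1.54% and 14.4%.

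**Figure D5:**
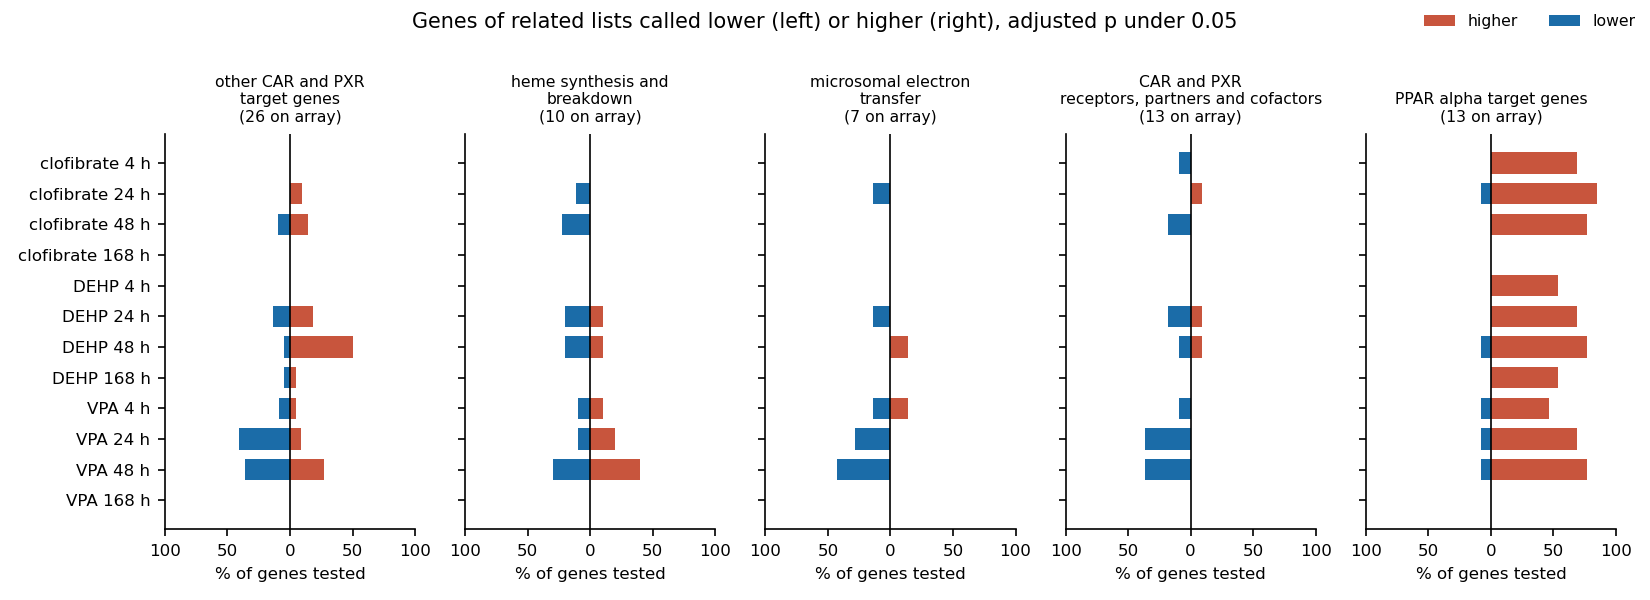
Share of the tested genes of 5 related lists called higher (right, red) or lower (left, blue) in each of the 12 treated comparisons. PPAR alpha targets have 6 to 11 of 13 called higher at 4 to 48 h. Other genes listed as CAR and PXR targets split between higher and lower, with 11 of 22 higher at 48 h after DEHP.

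Markers of liver cell types moved at the same times. At 24 and 48 h 0 of 9 hepatocyte markers were called higher and 3 to 8 lower, with 8 lower after VPA at both times. Over all probe sets, 5.75% to 21.3% were called higher and 7.74% to 21.1% lower in these comparisons. The summed signal of the hepatocyte list spanned 225364 to 286893 at 48 h after VPA and 368763 to 457198 in its vehicle livers. After DEHP it spanned 387881 to 480591 against 496950 to 596233, and after clofibrate 428624 to 570715 against 614847 to 828312. Of the markers tested at 48 h, 2 of 5 or 6 Kupffer cell and leukocyte markers were called lower after clofibrate and VPA and 3 after DEHP, and none was called higher. Stellate cell and matrix markers had 2, 6 and 3 called lower after clofibrate, DEHP and VPA, and red cell markers 2, 3 and 3 of 5. No endothelial marker was called higher, and 1 was called lower after DEHP. Of the bile duct markers 1 was called higher, after VPA. Cyp2b induction is known to be strongest around the central vein. Of 6 pericentral hepatocyte genes 2, 4 and 5 were called lower at 48 h after clofibrate, DEHP and VPA and 0, 1 and 1 higher, and of 10 periportal genes 3, 3 and 1 lower and 1, 1 and 2 higher. Their part in the changes of the 9 probe sets was not tested.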

How the data were processed

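Per the labels' protocols, RNA STAT-60 was used to isolate liver RNA, each array took 10 µg, and signals came from MAS 5.0 with scaling to 1500. The values used are the deposited signal intensities of 94 arrays, 76 of single animals and 18 of pooled RNA. The scanner logs, which the authors deposited beside them and which hold text settings and no score or other measurement of a gene, gave the day of each scan. How the tissue was sampled beyond this is not given in the sources used here.

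Intensities under a floor of 150 were set to it and log2 was taken. Control probe sets (59) and those with a mean signal under 500 in every group of a fit were left out, which kept 3616 probe sets in the clofibrate fit, 4092 in that of DEHP, 4269 in that of VPA and 4503 in the joint one. Genes were named from the platform annotation, with 7018 probe sets of 1 symbol, 308 of several and 1473 of none. Of the 1-symbol probe sets, 6994 had a gene ID in the reference table.

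Each compound's 6 groups were fitted with limma 3.58.1 (lmFit, then eBayes with its trend option) under R 4.3.3. Treated livers at 48 and 168 h had their time-matched vehicle livers as controls, and at 4 and 24 h the controls were the equally weighted mean of both vehicle groups. Changes between 48 and 24 h or 168 and 48 h are differences of these responses, and 24 h against 4 h compares treated livers directly. Compounds were compared in 1 fit of all 76 arrays. Adjusted p-values are Benjamini-Hochberg values over all probe sets of a fit, called under 0.05. They set each change against the spread among arrays of the same group, pooled over the groups of a fit. Gene lists were named by up to 4 genes of smallest adjusted p per list at 24 and 48 h, and similar genes by the 3 highest correlations per gene, 5 for Cyp2b2. Members and lists were chosen with earlier results of these data known. The fits were tested on simulated data. Python 3.11.15 with numpy 2.4.6, pandas 2.3.3 and matplotlib 3.10.9 was used for sequences and plots.

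No array was a copy of another, since the most alike pair shared 0.17% of values. Median signals ran from 211.6 to 415.2 over the single-animal arrays. Alternatives covered the floor, the filter, the scaling, the prior, the arrays fitted, the replicate number and the scan day as blocks, the 3'/5' ratio, array weights, the vehicle group and each array left out.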

Additional observations from a re-analysis of the deposited data

Results flagged for a closer look

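In groups of 4 or 5 animals, 7 of 108 tests (6.48%) found 1 animal far from the rest by Dixon's criterion, where chance flags about 1 in 20 groups. Cyp2b2 probe set K01721mRNA_s_at read 864.7 in the first clofibrate vehicle liver of 168 h, and 10247.5 to 16677 in the other four. Cyp2b15 read 2687 in the second VPA-treated liver of 168 h and 3210.2 to 3321 in the rest. Alas1 probe set J03190_at read 9872 in the fourth VPA vehicle liver of 168 h, above the rest at 4210.5 to 5161, and J03190_g_at read 4831 in the second clofibrate-treated liver of 48 h, below the rest at 8825 to 11257. For Por, E01524cds_s_at read 2870.1 in the fourth VPA-treated liver of 168 h against 1884.5 to 2015 in the rest. M10068mRNA_s_at read 2039 in the first VPA vehicle liver of 48 h against 3371 to 4035, and rc_AI137856_s_at read 4152.5 in the second VPA-treated liver of 48 h against 8506 to 9632.

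Several responses differed between times or compounds by a test of the difference itself, with limma's adjusted p over all probe sets. After DEHP the response at 168 h was below that at 48 h on the log2 scale for Cyp2b2 (-1.52, adjusted p = 0.00475), Cyp2b15 (-1.29, adjusted p = 2.11e-05), Alas1 (-1.49, adjusted p = 0.0139), Por (-1.35, adjusted p = 3.86e-05) and Ephx1 (-1.03, adjusted p = 0.00346). After VPA the same held for Cyp2b2 (-2.21, adjusted p = 0.000265), Cyp2b15 (-2.23, adjusted p = 2.17e-06) and Ephx1 (-0.81, adjusted p = 0.015). Ephx1 responded more at 48 h than at 24 h after DEHP (0.85, adjusted p = 0.0361), with each of 5 livers at 48 h above each of 3 at 24 h. Cyp2b15 responded more to VPA than to clofibrate at 48 h (1.04, adjusted p = 0.0135), at doses that differ.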

How the results depend on the processing

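No change called in the report reversed under any alternative run. Of 1467 recomputed values of called probe sets, 1417 kept the call and 50 lost it, most of them after clofibrate, and 369 of 381 recomputed counts of the 9 probe sets stayed within 1.5 times. With the 168 h vehicle group alone, the clofibrate counts moved from 3 to 1 at 4 h and from 6 to 3 at 24 h. Under quantile normalization the count at 48 h against 24 h moved from 1 to 0 after DEHP and from 0 to 1 after VPA, and at 48 h that of VPA against clofibrate moved from 1 to 2 and that of VPA against DEHP from 0 to 1. With no filter the DEHP count at 48 h against 24 h was 0. In a fit of the 2 compounds compared, chosen after seeing the data, that of VPA against DEHP at 48 h was 1. The cause of these moves was not tested.

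Leaving out each animal in turn gave counts at 4, 24, 48 and 168 h of 0 to 4, 2 to 6, 6 to 9 and 0 to 0 after clofibrate, 0 to 1, 7 to 8, 9 to 9 and 3 to 3 after DEHP, and 3 to 6, 6 to 7, 6 to 7 and 0 to 0 after VPA. With the replicate number as a block, the counts were 2, 5, 7 and 0 after clofibrate, 0, 8, 9 and 3 after DEHP, and 7, 7, 7 and 0 after VPA. Same-numbered animals correlated between -0.46 and 0.55, over 0.1 in at most 2 pairs of a comparison, and at most 2 correlated best with their own number. With 4 or 5 pairs per comparison, this cannot show whether animals of 1 number share anything else. Without the 2 arrays whose fluidics record says aborted, also chosen after seeing the data, no count changed.

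The share of all probe sets called in either direction depended on the settings as well. With no filter it was 1.38%, 4.5% and 6.57% at 4, 24 and 48 h after clofibrate, 1.05%, 13.6%, 14.7% and 1.35% at 4 to 168 h after DEHP and 10.4%, 17.4% and 19.2% at 4, 24 and 48 h after VPA. The values of the main settings were 3.43%, 13.5% and 20.0%, 2.88%, 32.6%, 33.8% and 3.62%, and 21.2%, 36.5% and 39.7%. Array weights gave 17.9% and 38.1% at 4 and 48 h after clofibrate, and the 3'/5' covariate 26.1% at 24 h. A filter at a mean signal of 1000 gave 5.56% at 168 h after DEHP. Between compounds, the fit of VPA and DEHP alone called 11%, 9.98%, 14.7% and 1.49% at 4, 24, 48 and 168 h. The number of arrays limits the precision.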
